A study of Macaca mulatta with 5 samples.

Results

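7 genes for voltage-gated sodium channel subunits were followed across the nuclei of the rhesus macaque (Macaca mulatta) claustrum: SCN1A, SCN2A, SCN3A, SCN8A and SCN9A, which encode pore-forming alpha subunits, and SCN3B and SCN4B, which encode auxiliary beta subunits. The members were taken by exact match of these symbols to the gene names of the deposited matrices, which found all 7 of 7 among 21761 genes in all. The data were single-nucleus RNA counts from surgically removed, frozen claustrum of 2 untreated, healthy male animals. The 18-month-old animal gave 3 libraries and the 17-month-old animal gave 2 libraries, all made with droplet chemistry that reads the 3′ end of transcripts. Each age is therefore 1 animal, and "at 18 months" and "at 17 months" below stand for the libraries of that animal in the order of their labels.

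A pore subunit opens when the membrane depolarises and carries the inward sodium current of the rising action potential, and beta subunits bind it, shift its gating and hold it in the membrane. In the cortex the alpha subunits divide the work: SCN1A is best known for fast-spiking inhibitory neurons and for the epilepsy Dravet syndrome, SCN2A and SCN8A for the axon initial segments of excitatory neurons, SCN3A for the developing brain, and SCN9A for pain-sensing neurons outside the brain. SCN4B is known from rodents as the beta subunit of the resurgent sodium current, in which channels reopen on repolarisation, and as a gene of the striatum.

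After removal of 359 nuclei with fewer than 500 genes and 2555 predicted doublets, 37091 of 40005 barcodes remained, between 6053 and 8812 a library, with median counts of 2976 to 3485 unique molecular identifiers (UMIs) a nucleus. Pairs of libraries shared at most 0.487% of their barcodes. Nuclei were clustered without the sodium channel genes and named from marker lists as 8514 excitatory, 2718 inhibitory and 1922 striatal projection neurons, 14499 oligodendrocytes, 2830 microglia, 2064 oligodendrocyte precursors, 1206 astrocytes and smaller vascular and precursor groups, and 2499 nuclei stayed unnamed. Striatal projection neurons made up 4.23%, 9.06% and 8.34% of the nuclei at 18 months and 2.40% and 1.72% at 17 months. The largest excitatory type, 5133 nuclei in 5 clusters, was named claustrum-like from NR4A2, GNB4, SYNPR, NTNG2, SMYD1 and GNG2. CUX2, a gene of the upper cortical layer list, was among the leading genes of all 5 clusters, and in 3 of them no claustrum marker was. Over the whole type the 6 markers stood well above the other named excitatory neurons, with NR4A2 at 251 against 27.7 and SYNPR at 997 against 120 CPM, the unit defined below. The name was given by these same markers, so their levels are no separate check of it. In these 5 clusters no other excitatory type, the upper layer type included, had the 3 detected markers needed for a score. The layer 5/6 NP-like type was a single cluster of 104 nuclei with no marker of its own among its leading genes, and layer 6 IT scored next. Names are a re-derivation, written here with "-like" for the neuron types.

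Levels are CPM, the UMIs of a gene per 1000000 UMIs summed over a library's nuclei of one group, given as mean ± SD over libraries. Because 3′ counts are not corrected between transcripts, they are set against each other within a gene and not between genes. The 7 members gave 51227 (SCN1A), 115924 (SCN2A), 46722 (SCN3A), 86725 (SCN8A), 19785 (SCN9A), 34455 (SCN3B) and 6677 (SCN4B) UMIs in the kept nuclei, so SCN4B and SCN9A carry the largest counting error. Tests compared groups within libraries. A gene is called here when its Benjamini-Hochberg adjusted p over all genes tested was under 0.05 and its fold change was at least 2, and each count of called members is read against the share of all genes called in the same comparison. Since only 2 animals gave the 5 libraries, the p-values say nothing of the spread between animals and measure that of these libraries alone.

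**Figure D1:**
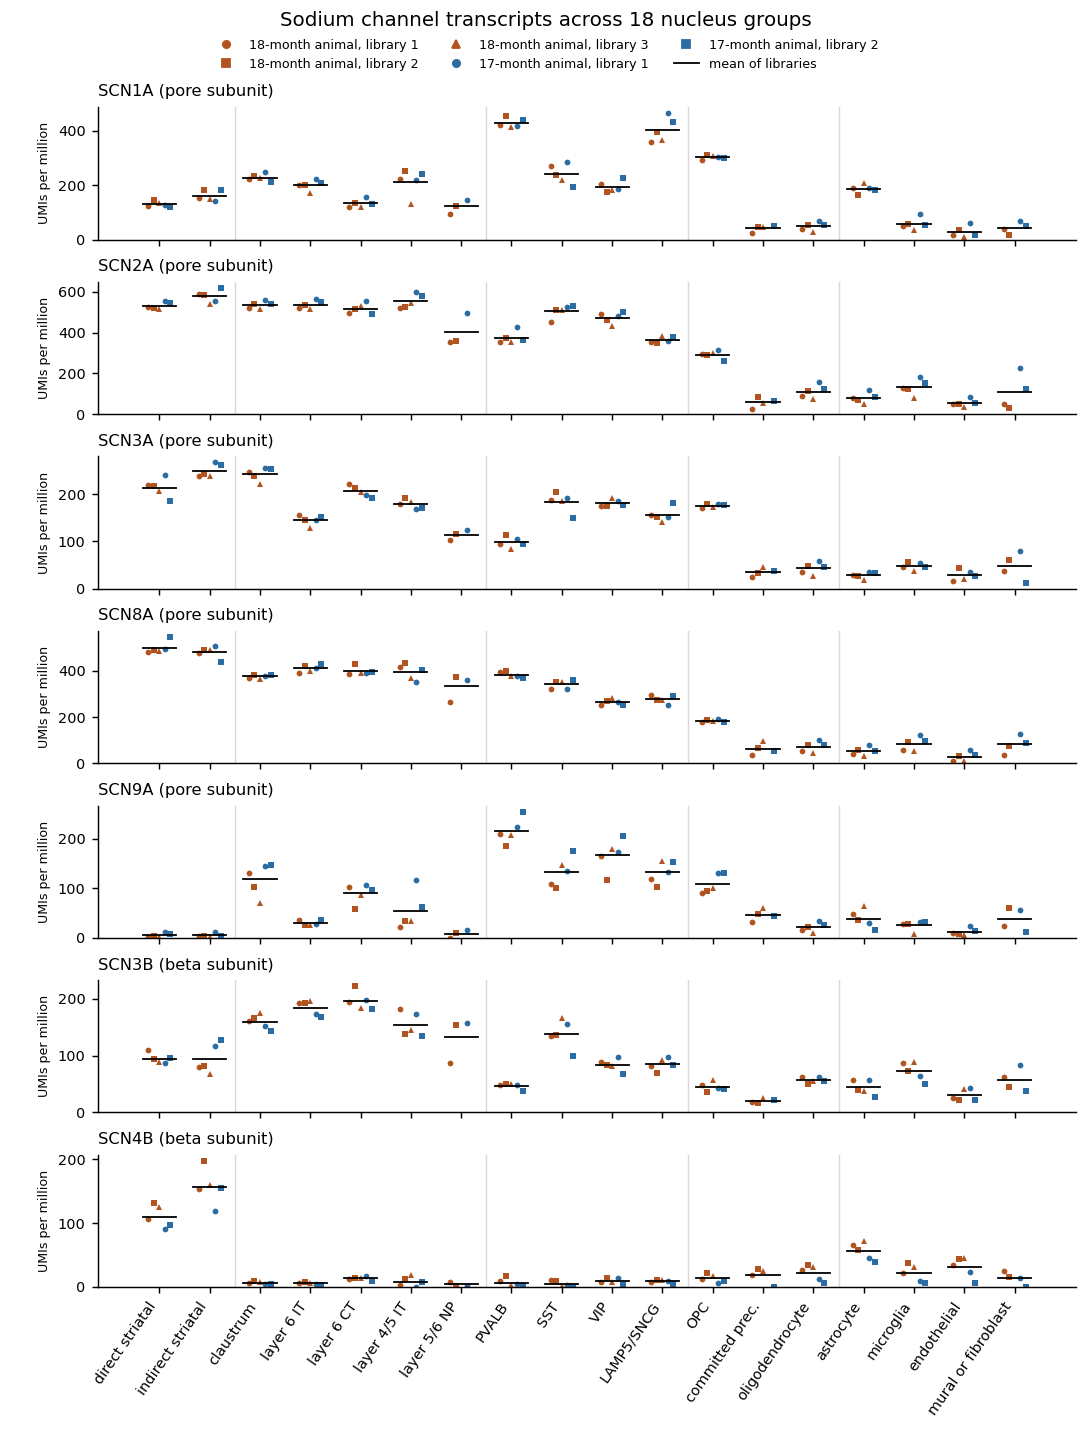
Level of each of the 7 sodium channel genes (1 panel each) in CPM over 18 groups of striatal, excitatory, inhibitory and non-neuronal nuclei; points are libraries, orange for the 18-month and blue for the 17-month animal, and lines are means. Of the groups shown, which leave out unnamed clusters, SCN1A is highest in PVALB-like neurons (430.1 CPM), SCN3B in layer 6 CT-like neurons (196 CPM) and SCN4B in indirect-pathway striatal neurons (157 CPM).

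Among the pore genes, each had its own order of groups. Of the named groups, SCN1A was highest in PVALB-like interneurons at 430.1 ± 16.9 CPM, followed by LAMP5/SNCG-like interneurons at 403 ± 44.8 CPM, whose libraries overlapped with them, and, clear of the neurons next in order, by oligodendrocyte precursors at 303 ± 7.09 CPM. An inhibitory cluster that stayed unnamed, with LAMP5 among its leading genes, had more SCN1A than any named inhibitory cluster (see Other observations). SST-like, claustrum-like, layer 4/5 IT-like, layer 6 IT-like and VIP-like neurons and astrocytes followed between 242 and 186 CPM with overlapping ranges from one to the next. Layer 6 CT-like neurons (133 CPM), direct-pathway striatal neurons (129 CPM) and layer 5/6 NP-like neurons (122 CPM, 3 libraries) were the lowest named neurons, and oligodendrocytes stood at 47.98 CPM.

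SCN2A was spread evenly over neurons. It ranged between 578 ± 30.9 CPM in indirect-pathway striatal neurons and 365 ± 13.6 CPM in LAMP5/SNCG-like interneurons, with overlapping libraries between most neighbours in the order, and all neuron types lay above oligodendrocyte precursors at 291 ± 18.99 CPM. SCN3A was led by indirect-pathway striatal neurons (249.8 ± 13.8 CPM) and claustrum-like neurons (243 ± 13.3 CPM), which overlapped, and was lowest among neurons in PVALB-like interneurons (97.9 ± 11.4 CPM), which overlapped with layer 5/6 NP-like neurons (114 CPM) just above them and stood clear of the glia below. SCN8A was highest in direct- and indirect-pathway striatal neurons, at 498 ± 26.6 and 480.2 ± 26.01 CPM, which overlapped with each other and not with layer 6 IT-like neurons (409.9 CPM) next in order. VIP-like interneurons had the lowest neuronal SCN8A level, 265 ± 12.9 CPM, and overlapped with LAMP5/SNCG-like interneurons (277 CPM) just above them.

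SCN9A was spread unevenly. It reached 216 ± 25.5 CPM in PVALB-like, 168 ± 32.5 CPM in VIP-like, 133 ± 29.8 CPM in SST-like, 133 ± 22.4 CPM in LAMP5/SNCG-like and 119 ± 32.1 CPM in claustrum-like neurons, all overlapping with the next in order. It was at 30.4 ± 4.55 CPM in layer 6 IT-like neurons, 8.29 CPM in layer 5/6 NP-like neurons and 5.22 and 5.04 CPM in direct- and indirect-pathway striatal neurons. Of the beta genes, SCN3B was led by the deep cortical types, layer 6 CT-like (196 ± 16.4 CPM) and layer 6 IT-like (185 ± 12.7 CPM) neurons, with claustrum-like neurons at 159.6 ± 11.99 CPM and PVALB-like interneurons lowest among inhibitory types at 46.6 CPM. SCN4B ran apart from the other members, with 157 ± 27.8 CPM in indirect-pathway and 110.3 ± 17.7 CPM in direct-pathway striatal neurons and under 10 CPM in excitatory and inhibitory neurons as a whole.

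Striatal projection neurons, the GABA-releasing output cells of the striatum, differed most from the excitatory and inhibitory neurons in SCN9A and SCN4B. SCN9A measured 3.58, 4.18 and 1.96 CPM at 18 months and 11.6 and 4.74 CPM at 17 months in striatal projection neurons. Excitatory neurons had 102, 75.8 and 64.03 CPM at 18 months and 103 and 107 CPM at 17 months, and inhibitory neurons had 139.7, 138 and 168 CPM at 18 months and 158 and 183 CPM at 17 months. Every striatal value was below every value of the excitatory and inhibitory classes as a whole. Layer 5/6 NP-like neurons, a small excitatory type, overlapped with the striatal values at 8.29 ± 7.84 CPM (3 libraries). The striatal sum rested on 112 UMIs from 1922 nuclei, and its level was under that of oligodendrocytes (21.9 CPM). After thinning each nucleus to 1500 UMIs, 0.679% of striatal nuclei held an SCN9A UMI, below the 3.34% of oligodendrocytes (median depths 13724 and 2416 UMIs before thinning), against 11.8% of excitatory and 19.2% of inhibitory nuclei. The part of free RNA in the striatal SCN9A level was not tested.

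SCN4B ran the opposite way, with 127, 158 and 134 CPM at 18 months and 95.6 and 101 CPM at 17 months in striatal projection neurons. Excitatory neurons had 6.26, 10.00 and 7.53 CPM at 18 months and 5.205 and 4.42 CPM at 17 months, and inhibitory neurons 9.91, 13.3 and 7.35 CPM at 18 months and 9.66 and 4.14 CPM at 17 months, so the striatal values did not overlap with either. The excitatory and inhibitory levels were 5.43% and 7.21% of the striatal level, where PDE10A, a phosphodiesterase that marks striatal projection neurons, was at 4.47% and 4.07% of its own. Of the other striatal markers, RGS9 was at 2.14% and 2.27%, PPP1R1B at 4.19% and 3.85% and RARB at 10.3% and 9.03%, so SCN4B lay inside their span. Its excitatory and inhibitory means also lay under those of oligodendrocytes, precursors, astrocytes and microglia, and the part of free RNA in them was not tested. Over 9 striatal clusters SCN9A averaged between 1.92 and 10.4 CPM and SCN4B between 92.6 and 213 CPM.

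Against excitatory neurons, 2 of 7 members were called in striatal projection neurons, against 19.7% of all 9987 genes tested. SCN9A fell (log2 fold change -4.18 ± 0.26 (SE), adjusted p = 3.24e-07) and SCN4B rose (log2 fold change 4.35 ± 0.10 (SE), adjusted p = 3.08e-16), each in 5 of 5 libraries. The other members shifted by less than 2-fold, with SCN8A 0.48 higher (7.06e-09), SCN3A 0.29 (5.91e-05) and SCN2A 0.20 (0.000263) on the log2 scale, and SCN1A at -0.40 (6.17e-06) and SCN3B at -0.70 (6.67e-09), adjusted p in parentheses. All 7 of 7 had an adjusted p under 0.05, as did 64.3% of all genes. Against inhibitory neurons 3 of 7 members were called, against 21.9% of genes, since SCN1A was lower as well: 139.9, 163 and 139.6 CPM at 18 months and 131 and 135 CPM at 17 months in striatal projection neurons, against 367, 344 and 337 CPM at 18 months and 374 and 373 CPM at 17 months in inhibitory neurons (log2 fold change -1.12 ± 0.06 (SE), adjusted p = 5.56e-12). All 7 of 7 again had an adjusted p under 0.05, where 61.8% of genes did. SCN9A fell by 4.94 and SCN4B rose by 3.96 on the log2 scale (adjusted p = 9.26e-08 and 1.79e-14). SCN2A, SCN3A and SCN8A were higher by 0.64, 0.80 and 0.84 without reaching 2-fold. The members' median log2 fold change was 0.20 against excitatory and 0.64 against inhibitory neurons, where the medians over all genes were 0.01 and -0.01.

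**Figure D2:**
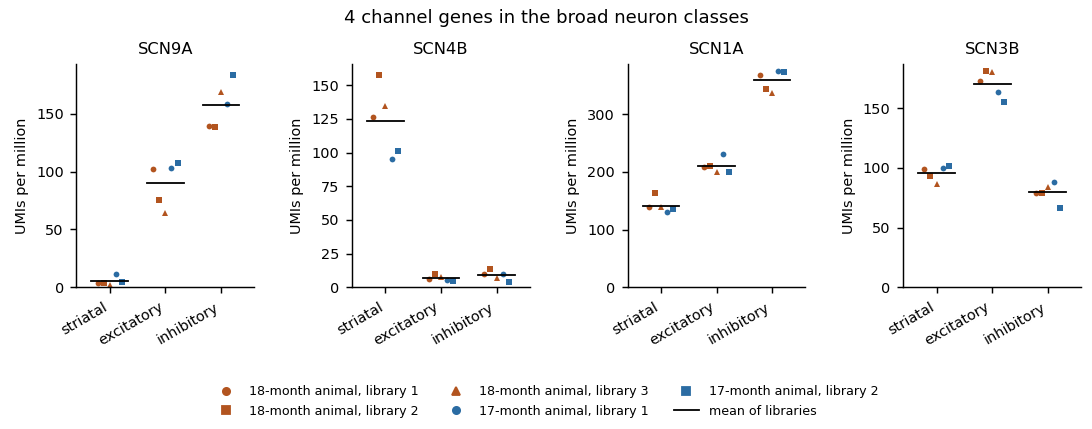
SCN9A, SCN4B, SCN1A and SCN3B in striatal projection, excitatory and inhibitory neurons, in CPM; each point is 1 library, orange for the 18-month and blue for the 17-month animal, and the line is the mean of 5 libraries. SCN9A points of striatal projection neurons all lie between 1.96 and 11.6 CPM, below every point of the 2 other classes, and their SCN4B points all lie above.

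Excitatory neurons set against inhibitory neurons showed a split among subunits. Of the 7 members, 1 was called, SCN3B, against 13.6% of 9987 genes. SCN3B had 173, 181 and 180.1 CPM at 18 months and 164 and 155 CPM at 17 months in excitatory neurons, against 79.1, 79.4 and 84.2 CPM at 18 months and 88.2 and 66.7 CPM at 17 months in inhibitory neurons, with no overlap (log2 fold change 1.16 ± 0.06 (SE), adjusted p = 8.3e-12). SCN1A, at 209.7 ± 12.5 CPM in excitatory and 359 ± 17.3 CPM in inhibitory neurons, was lower in excitatory neurons in 5 of 5 libraries but under 2-fold (log2 fold change -0.72 ± 0.06 (SE), adjusted p = 2.22e-09). SCN9A was likewise lower, at -0.76 ± 0.15 log2 (adjusted p = 0.00166), and SCN2A, SCN3A and SCN8A were higher by 0.44, 0.51 and 0.35. These 3 and SCN1A, SCN9A and SCN3B kept non-overlapping library ranges between the classes. All 7 members had an adjusted p under 0.05, where 57.7% of all genes did, and the members' median was 0.35 against -0.01 over all genes.

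**Figure D3:**
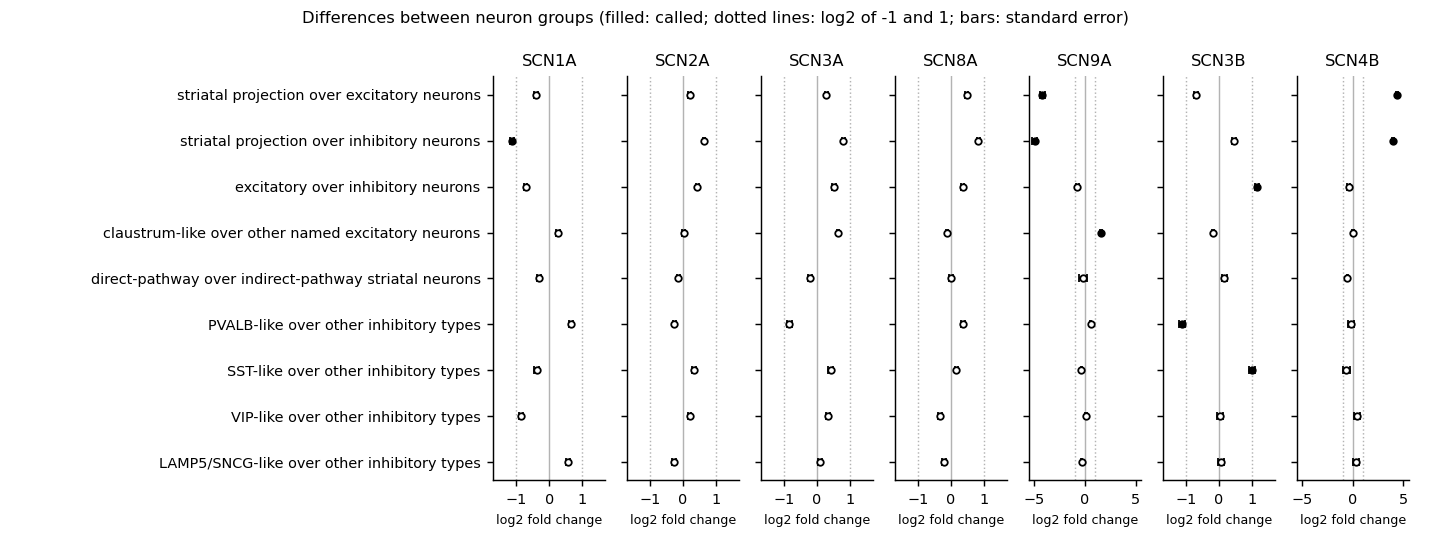
Log2 fold change of each member in the neuron comparisons, with bars of 1 standard error (mostly hidden by the points), dotted lines at -1 and 1, and filled points for called members. The largest shifts are SCN9A in striatal projection over inhibitory neurons (-4.94) and SCN4B in striatal projection over excitatory neurons (4.35).

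The excitatory comparison sets claustrum-like neurons against the remaining named types, which were layer 6 IT-, layer 6 CT-, layer 4/5 IT- and layer 5/6 NP-like. SCN9A was the 1 of 7 members called, against 7.96% of 10853 genes. It measured 130.4, 102 and 70.9 CPM at 18 months and 145 and 146 CPM at 17 months in claustrum-like neurons, against 41.7, 32.5 and 35.3 CPM at 18 months and 38.7 and 47.97 CPM at 17 months in the others. The claustrum-like libraries ran between 70.9 and 146 CPM, library 3 at 18 months being lowest, and did not overlap with the others (log2 fold change 1.57 ± 0.12 (SE), adjusted p = 0.000228, higher in 5 of 5 libraries). With the 3 clusters that had no claustrum marker among their leading genes left out, an alternative chosen after seeing the data, the log2 fold change was 1.82 (adjusted p = 0.00192), and with all other excitatory nuclei in the comparison it was 1.32 (adjusted p = 0.00737).

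SCN3A had 248, 239 and 222 CPM at 18 months and 255 and 253 CPM at 17 months in claustrum-like neurons, against 163, 164 and 141 CPM at 18 months and 151 and 162 CPM at 17 months in the others, again without overlap. Its shift of 0.63 ± 0.04 log2 (adjusted p = 5.87e-09) stayed under 2-fold. The others were pooled here, and most of their nuclei were layer 6 IT-like, with 146 CPM of SCN3A. Layer 6 CT-like neurons taken alone had 206 ± 12.2 CPM. Their highest library, at 222.6 CPM, overlapped with the lowest claustrum-like one, at 222.1 CPM. SCN8A had 376 ± 8.04 CPM in claustrum-like neurons and 404 ± 16.7 CPM in the pooled others, also without overlap and lower in 5 of 5 libraries. SCN1A was 0.27 higher on the log2 scale, and SCN8A and SCN3B differed by -0.11 and -0.19 (adjusted p = 0.003, 0.018 and 0.000438). SCN2A differed by less than its error, with 536 ± 17.9 CPM in claustrum-like and 529 ± 22.2 CPM in the other neurons (log2 fold change 0.01 ± 0.03, adjusted p = 0.782). In all, 5 of 7 members had an adjusted p under 0.05, against 41.4% of genes.

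By cluster, SCN9A levels of the 5 claustrum-like clusters ran between 78.7 and 148 CPM, and those of the 3 layer 6 IT-like clusters between 11.7 and 34.4 CPM. Layer 6 CT-like neurons, one cluster, lay inside that claustrum-like range at 89.9 ± 19.4 CPM, and so did an unnamed excitatory cluster of 295 nuclei led by layer 6 genes at 115 ± 30.8 CPM. That unnamed cluster had 70.7 ± 8.899 CPM of SCN1A, below every named excitatory cluster. Layer 4/5 IT-like neurons varied widely between libraries, at 53.9 ± 38.1 CPM.

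**Figure D4:**
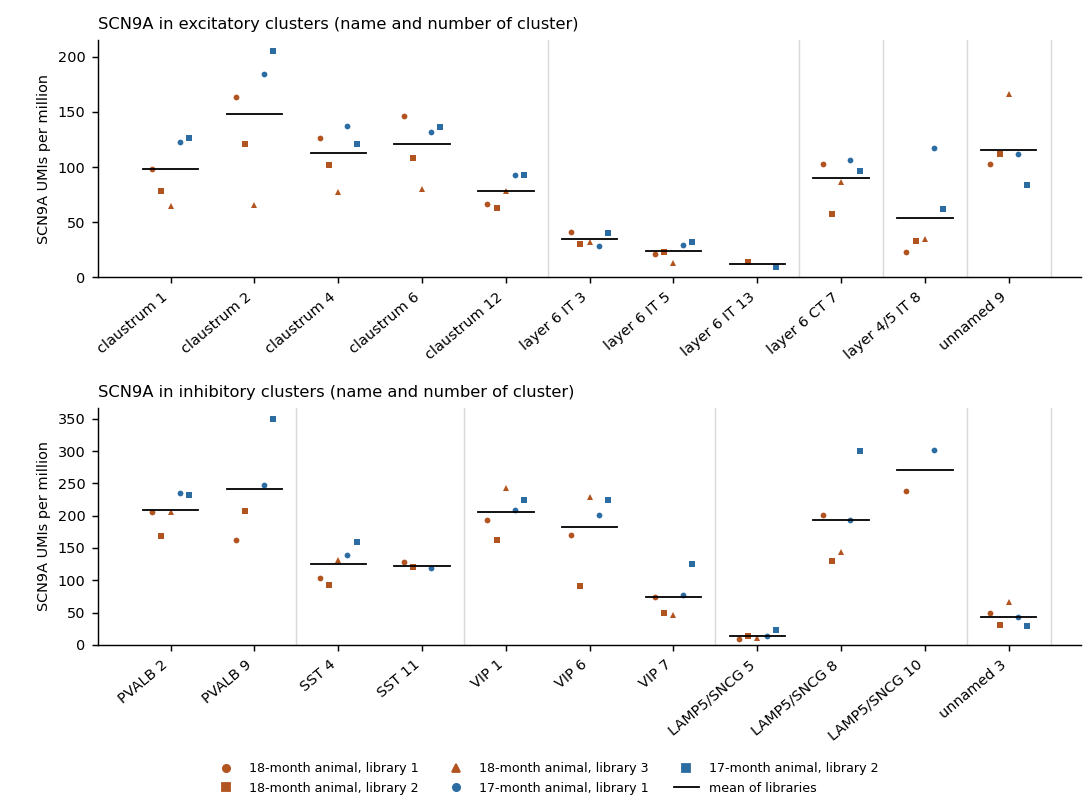
SCN9A in excitatory (top) and inhibitory (bottom) clusters, in CPM; points are libraries with at least 20 nuclei of the cluster, orange for the 18-month and blue for the 17-month animal, and lines are means. Claustrum-like clusters average between 78.7 and 148 CPM, layer 6 IT-like clusters stay under 35 CPM, and the LAMP5/SNCG-like clusters split into one at 13.9 CPM and others at 194 and 270 CPM.

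PVALB-like interneurons, the class that holds fast-spiking basket and chandelier cells, combined high SCN1A with low SCN3B. SCN1A had 421, 455 and 415 CPM at 18 months and 419 and 440.1 CPM at 17 months in them, and the shift over the mean of the other 3 inhibitory types was 0.66 ± 0.06 log2 (adjusted p = 6.18e-14), under 2-fold. SCN3B had 47.9, 50.1 and 50.01 CPM at 18 months and 47.9 and 37.2 CPM at 17 months, lower than the mean of the other types in 5 of 5 libraries, and was the 1 of 7 members called, against 6.05% of 7564 genes (log2 fold change -1.12 ± 0.09 (SE), adjusted p = 1.53e-15). SCN9A (0.58) and SCN8A (0.36) were also higher and SCN3A (-0.85) and SCN2A (-0.27) lower on the log2 scale, in 5 of 5 libraries each. With these, 6 of 7 members had an adjusted p under 0.05, against 31.1% of genes.

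SST-like interneurons, which mostly target dendrites, went the other way for SCN3B. They had 135, 136 and 166 CPM at 18 months and 155 and 98.8 CPM at 17 months, above the mean of the other types in 5 of 5 libraries, and SCN3B was the 1 of 7 called, against 5.39% of genes (log2 fold change 1.01 ± 0.08 (SE), adjusted p = 6.09e-15). The fold lay at the 2-fold threshold, and without library 2 or without library 3 at 18 months it was 0.998 and 0.958 on the log2 scale, under it, so the call is lost. The log2 fold change in SST-like interneurons was -0.38 for SCN1A, 0.42 for SCN3A and 0.34 for SCN2A, and 6 of 7 members had an adjusted p under 0.05, against 21.7% of genes.

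In VIP-like interneurons, which mainly inhibit other interneurons, 0 of 7 members were called by edgeR's quasi-likelihood test, against 5.09% of genes, and also 0 by DESeq2, with 4 at an unadjusted p under 0.05. The largest shift there was SCN1A, 195 ± 20.9 CPM and -0.86 ± 0.07 log2 (adjusted p = 6.49e-16), lower in 5 of 5 libraries, and 4 of 7 members had an adjusted p under 0.05, against 23.8% of genes. LAMP5/SNCG-like interneurons, a group that includes neurogliaform cells, also had 0 of 7 called by both tools, against 5.22% of genes, with 4 at an unadjusted p under 0.05. SCN1A was 0.59 higher in them (adjusted p = 1.34e-11), while SCN2A, SCN8A and SCN9A had log2 fold changes of -0.27, -0.20 and -0.32, and these 4 of 7 had an adjusted p under 0.05, against 22.4% of genes.

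Direct- and indirect-pathway striatal neurons, told apart by dopamine receptor type in the textbook account, differed by less than 2-fold in all members. A cluster of 60 nuclei in the indirect-pathway type had no marker of that type among its leading genes. Of these nuclei, 48 came from library 2 at 18 months. A further 573 striatal nuclei were given neither pathway name. Of 7 members 0 were called by edgeR's quasi-likelihood test and 0 by DESeq2, against 1.31% of 7850 genes, with 4 at an unadjusted p under 0.05. SCN4B was the member that differed most, with 107, 131 and 126 CPM at 18 months and 90.2 and 97.5 CPM at 17 months in direct-pathway neurons, against 153, 197 and 159.8 CPM at 18 months and 119 and 155 CPM at 17 months in indirect-pathway neurons. The ranges overlapped across libraries, but within each library the direct-pathway value was the lower one (log2 fold change -0.52 ± 0.07 (SE), adjusted p = 1.06e-06). SCN1A (-0.31 ± 0.07, adjusted p = 0.00255) and SCN3A (-0.22 ± 0.06, adjusted p = 0.0228) were lower by small amounts, also in 5 of 5 libraries. These 3 of 7 had an adjusted p under 0.05, where 6.69% of genes did.

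Oligodendrocyte precursors, the dividing glia that receive synapses and give rise to myelinating cells, carried all 5 pore genes at higher levels than the mean of the other glia. SCN1A had 293, 312 and 306 CPM at 18 months and 305 and 299 CPM at 17 months in precursors, with no overlap with any other glial class, which had 186 CPM in astrocytes, the nearest class, 57.9 CPM in microglia and 47.98 CPM in oligodendrocytes. Against the mean of the other 3 classes, SCN1A, SCN2A, SCN3A, SCN8A and SCN9A rose by 2.06, 1.63, 2.32, 1.602 and 2.11 on the log2 scale, each in 5 of 5 libraries (highest adjusted p = 3.35e-06). SCN4B fell by 1.05 (adjusted p = 0.000111) and SCN3B differed by -0.25 (adjusted p = 0.0656), so 6 of 7 members were called, against 16.7% of 8719 genes. Of all genes, 9.53% were called higher, as were the 5 pore genes, and 7.2% were called lower, as was SCN4B. The members' median was 1.63, against -0.05 over all genes. The SCN4B call was lost without library 1 at 18 months, at -0.97.

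Neuronal RNA that floats free in the suspension can reach every droplet, so genes listed as neuron-only, the gauge genes, were set beside the members in the same glia. In precursors, SCN1A stood at 84.4%, SCN3A at 83.2%, SCN9A at 69.3%, SCN2A at 54.5% and SCN8A at 46.9% of the higher of the excitatory and inhibitory levels. The gauge genes stood between 4.25% for the neuronal splicing factor RBFOX3 and 47.1% for NRG3, with CELF4 at 10.9%, the synaptic vesicle gene SYT1 at 29.2% and SNAP25, a vesicle fusion gene, at 44.4%. NRG3 reached 101% of the neuronal level in astrocytes and is therefore a weak gauge in glia. After thinning to 1500 UMIs, 35.01% of precursors held an SCN1A UMI, against 7.01% of oligodendrocytes, whose median depth was 2416 UMIs against 3615 UMIs in precursors. SCN3B in precursors, at 26.3%, lay within the range of the gauge genes with or without NRG3. SCN8A lay just under NRG3 and above the remaining gauge genes, and the other 4 pore genes lay above all of them. The gauge genes differed widely from each other, and how much of the precursor levels was free RNA was not tested.

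Oligodendrocytes held low levels of the pore genes, between 13.4% and 20.7% of the neuronal level, inside the gauge genes' span of 5.56% to 52.8%, the top being SNAP25. The part of free RNA in these levels was not tested. Of 7 members 2 were called there, against 19.6% of genes, with SCN1A at -1.59 log2 (adjusted p = 2.76e-07) and SCN9A at -1.07 (adjusted p = 0.0019) against the mean of the other glia. The SCN9A call was lost without library 1 or library 3 at 18 months, at -0.97 and -0.89.

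Astrocytes, the glia that clear glutamate and potassium, differed from oligodendrocytes in SCN1A and SCN4B. SCN1A had 188, 163 and 208 CPM at 18 months and 189 and 181 CPM at 17 months in astrocytes, 51.7% of the neuronal level. Of the gauge genes there, SNAP25 stood at 36.4%, SYT1 at 14.8%, CELF4 at 7.79% and RBFOX3 at 5.25%. NRG3 stood at 101%, above SCN1A. How much of the astrocyte SCN1A level was free RNA was not tested. The shift against the other glia was 0.98 ± 0.16 log2 (adjusted p = 9.3e-05), just under 2-fold. It passed 2-fold with DESeq2 (1.03), without the library term (1.00) and without library 1 or 2 at 17 months or library 2 at 18 months (1.12, 1.00 and 1.05). SCN2A, SCN3A and SCN8A in astrocytes stood at 14.8%, 13.3% and 13.4% of the neuronal level, close to or under SYT1.

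SCN4B had 66.4, 57.9 and 71.8 CPM at 18 months and 45.1 and 38.8 CPM at 17 months in astrocytes, above the mean of the other glia in each (log2 fold change 1.67 ± 0.18 (SE), adjusted p = 1.7e-08). SCN2A and SCN3A fell, at -1.03 and -1.34 log2, which makes 3 of 7 members called, against 19.2% of genes. SCN2A lost its call without library 2 or 3 at 18 months (-0.98 and -0.99), and without library 1 at 17 months 5 members were called, SCN8A (-1.04) and SCN1A added. The SCN4B level in astrocytes was 45.5% of that in striatal projection neurons, where the striatal markers PPP1R1B, RARB, RGS9 and PDE10A stood at 26.8%, 19.3%, 16.01% and 1.36% of theirs. In microglia, the immune cells of the brain, 1 of 7 members was called, against 25.4% of genes: SCN1A, 57.9 CPM, had a log2 fold change of -1.46 against the other glia (adjusted p = 4.36e-06). SCN9A, at -0.97, was called as well without library 1 or 2 at 17 months or library 1 at 18 months (-1.02, -1.04 and -1.02). In microglia the pore genes and SCN3B lay within the gauge genes' range of 7.13% to 64.2%. SCN4B was at 17.2% of its striatal level there, above PPP1R1B (11.1%), RARB (3.33%), RGS9 (2.44%) and PDE10A (2.41%) and below DRD1 (30.3%), a dopamine receptor gene that measured 7.02 CPM in striatal projection neurons.

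Between the animals, the members passed about as often as all genes in excitatory neurons. In excitatory neurons 1 of 7 members had an adjusted p under 0.05, the threshold used here without a fold, against 15.3% of 11624 genes. SCN3B had 173, 181 and 180.1 CPM at 18 months, against 164 and 155 CPM at 17 months, without overlap (log2 fold change 0.20 ± 0.05 (SE), adjusted p = 0.0395). Left out one at a time, 4 of the 5 libraries ended the call, with log2 fold changes between 0.178 and 0.225 and adjusted p between 0.0548 and 0.253. For 2 of these 4 the 17-month animal was left with 1 library, which is assumed to vary like the others. Without library 1 at 18 months SCN3B, SCN9A (-0.53) and SCN4B (0.93) passed. SCN9A had 102, 75.8 and 64.03 CPM at 18 months, against 103 and 107 CPM (log2 fold change -0.34 ± 0.20 (SE), adjusted p = 0.322). In inhibitory neurons 0 of 7 passed by edgeR's quasi-likelihood test and 0 by DESeq2, against 8.09% of 9490 genes, with 1 at an unadjusted p under 0.05, SCN9A, which passed without library 3 at 18 months (-0.28, adjusted p = 0.0133).

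In oligodendrocytes SCN4B was the 1 of 7 that passed, against 14.5% of 9489 genes. It had 27.1, 34.6 and 31.5 CPM at 18 months, against 12.3 and 6.72 CPM at 17 months (log2 fold change 1.82 ± 0.23 (SE), adjusted p = 0.00152). The same libraries were high in astrocytes, at 66.4, 57.9 and 71.8 against 45.1 and 38.8 CPM, and in microglia, at 21.5, 37.7 and 31.4 against 9.91 and 5.601 CPM. This was not confined to glia. Precursors had 12.3, 22.3 and 16.9 against 6.79 and 9.17 CPM, and excitatory neurons 6.26, 10.00 and 7.53 against 5.205 and 4.42 CPM. Striatal projection neurons had 127, 158 and 134 against 95.6 and 101 CPM. Endothelial cells also did not overlap, while inhibitory neurons did. The share of striatal nuclei given above was also higher in each 18-month library, while the summed level of the 6 striatal markers in oligodendrocytes, 227, 396 and 245 CPM at 18 months against 315 and 203 CPM at 17 months, overlapped. SCN4B made up 11.9, 8.75 and 12.8 UMIs per 100 striatal marker UMIs in oligodendrocytes at 18 months, against 3.92 and 3.31 at 17 months, and between 0.934 and 1.29 in striatal projection neurons of all libraries. PDE10A made up most of that marker sum, with mean levels of 201 CPM in oligodendrocytes and 9936 CPM in striatal projection neurons. PPP1R1B alone had 20.4 and 218 CPM in the same 2 classes, beside 22.5 and 123 CPM for SCN4B. The part of striatal nuclei and of their free RNA in the result was not tested. The 5 pore genes in oligodendrocytes had log2 fold changes between -0.89 and -0.45 and did not pass, but all 5 did without library 2 at 18 months, at -1.19 to -0.74, which gives 6 of 7 members. In the same nuclei the summed neuron-only genes were at 2084, 2641 and 1642 CPM at 18 months, against 3747 and 2677 CPM at 17 months. That sum includes NRG3, a weak gauge in glia, at a mean of 885 CPM over the libraries.

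Genes that work with the channels were followed as a list of other subunits, intracellular FGF homologous factors that bind the channel tail, axon initial segment and node proteins, the sodium leak channel complex, a channel ubiquitin ligase and axonal potassium channels, 29 of which were measured. In striatal projection over excitatory neurons 5 of 25 tested partners were called higher and 1 lower, beside 19.7% of all genes called, with FGF14 at 5641 against 2133 CPM, log2 fold change 1.55, and FGF13 at 86.2 against 30.4 CPM, log2 fold change 1.67. Against inhibitory neurons 3 were called higher and 2 lower, beside 21.9% of all genes called, with FGF12 at 228 against 802 CPM, log2 fold change -1.62. In excitatory over inhibitory neurons 1 was called higher and 5 lower, beside 13.6% of all genes called. FGF13 had 30.4 against 684 CPM, log2 fold change -4.44, CNTNAP2, an adhesion protein of the node's flank, had 2395 against 8866 CPM, log2 fold change -1.83, and KCNA1, an axonal potassium channel, had 12.5 against 2.89 CPM, log2 fold change 2.16.

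In claustrum-like over other named excitatory neurons 2 of 26 partners were called higher and 3 lower, beside 7.96% of all genes called, with KCNA1 at 16.5 against 6.18 CPM, log2 fold change 1.43 and CNTNAP2 at 1579 against 3619 CPM, log2 fold change -1.20. Among inhibitory types, 3 partners were called higher and 0 lower in LAMP5/SNCG-like, 0 higher and 3 lower in SST-like and 1 higher and 1 lower in VIP-like interneurons, of 23 tested, with 12, 14 and 17 at an unadjusted p under 0.05. Of all genes, 5.22%, 5.39% and 5.09% were called in the same order. FGF13 was higher in LAMP5/SNCG-like interneurons (1260.0 against 165 CPM, log2 fold change 3.39) and lower in SST-like and VIP-like ones (-1.91 and -2.34 log2). NEDD4L, a ubiquitin ligase that takes channels off the membrane, was lower in PVALB-like interneurons (67.5 against 364 CPM, log2 fold change -2.43), the 1 of 23 partners called there, beside 6.05% of all genes. Between direct- and indirect-pathway neurons 0 of 23 partners were called by edgeR's quasi-likelihood test, beside 1.31% of all genes, with 8 at an unadjusted p under 0.05.

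In glia, where between 16.7% and 25.4% of all genes were called, partners were called in both directions. In precursors 10 of 24 tested were called higher and 2 lower, all 4 FGF homologous factors among the higher, with FGF13 at 372 against 29.7 CPM, log2 fold change 3.88. In oligodendrocytes 6 were called higher and 6 lower, with ANK3, the ankyrin that anchors sodium channels, at 1419.6 against 228 CPM, log2 fold change 2.99 and NFASC, a node adhesion protein, at 565 against 124 CPM, log2 fold change 2.52. In astrocytes 3 were called higher and 5 lower, with CNTN1 and NRCAM higher by 1.47 and 1.41 and ANK3 at -2.19. In microglia 2 were called higher and 10 lower. Between the animals, 0 partners passed as higher and 1 as lower of 26 in excitatory neurons (9 at an unadjusted p under 0.05), 2 higher and 1 lower of 25 in inhibitory neurons and 4 higher and 2 lower of 24 in oligodendrocytes at 18 months. Of all genes, 15.3%, 8.09% and 14.5% passed in the same order.

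The genes whose group means ran most like each member's were looked up over 18 groups among 11067 genes, as Pearson's r of log2(CPM + 1). SCN2A was most like UNC79 (0.988), KSR2 (0.980) and CELF5 (0.975), and SCN8A most like PCNX2 (0.982), UNC79 (0.978) and ADD2 (0.975). SCN3A followed LRRC7 (0.951) and UNC79 (0.9498), and SCN1A followed DENND5B (0.913), GRM5 (0.896) and SLC44A5 (0.895). SCN9A came closest to IPO9 (0.893), XPA (0.884) and NEK1 (0.877). SCN3B was most like JPH1 (0.941), UCHL1 (0.937) and RBFOX3 (0.929), and SCN4B most like PPP1R1B (0.910), RASD2 (0.907) and TPBG (0.898). The groups share libraries and differ in depth, so these values describe the 18 groups and carry no test.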

How the data were processed

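Per the labels' protocols, nuclei of frozen claustrum were made into libraries with the 10x Genomics 3′ V3 kit. The authors deposited a matrix of raw UMI counts per gene and barcode for each library, written by Cell Ranger 5.0.1 per the file headers. CASAVA 1.8 and Seurat, too, stand in the submitters' processing notes, beside 2 genome builds, Mmul_10 and mm10. Totals were 63073988, 70896967 and 57299421 UMIs at 18 months and 50993715 and 47512670 at 17 months.

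Nuclei with at least 500 genes were kept, Scrublet doublets were removed at 0.8% per 1000 nuclei because its automatic threshold marked 0.15% to 3.1%, and the top 2000 variable genes from 1 of 2 random sets of genes, without sodium channel genes, partners and markers, were clustered (30 components, library correction, Leiden; scanpy 1.11.5). Clusters were named from marker lists; naming rules were revised after clusters were seen. Counts were summed per library and group (at least 20 nuclei) and tested with edgeR 4.0.16 (glmQLFit robust, TMM, filterByExpr, library as a term except between animals) with Benjamini-Hochberg adjustment over all genes tested, and with DESeq2 1.42.0 as an alternative. Fits were checked on simulated counts. Some partner, marker and similarly patterned genes are not reported here. Intervals on UMIs cover counting error only. The members, partner and marker lists were chosen with earlier results of these data known. Members were all reported, and up to 4 called partners a comparison with the largest fold and 1 direction in each library. Other settings were RLE factors, no filter, at least 1000 genes, more doublets removed, only nuclei whose own markers fit their class, CPM averaged over nuclei, another set of excitatory neurons, and each library left out.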

Additional observations from a re-analysis of the deposited data

Results flagged for a closer look

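Of 119 levels of a member in a group with 4 or 5 libraries, 7 had 1 library far from the others, where chance gives about 1 in 20. SCN1A in layer 4/5 IT-like neurons was low in library 3 of the 18-month animal, at 130 CPM with the next at 221 CPM. SCN2A in SST-like interneurons was low in library 1 of the 18-month animal, at 454 CPM with the next at 510.2 CPM. SCN8A was high in direct-pathway striatal neurons of library 2 of the 17-month animal, at 545 CPM with the next at 494 CPM, and in layer 6 CT-like neurons of library 2 of the 18-month animal, at 429 CPM with the next at 393 CPM. SCN9A was low in microglia of library 3 of the 18-month animal, at 7.84 CPM with the next at 28.1 CPM, and high in indirect-pathway striatal neurons of library 1 of the 17-month animal, at 11.6 CPM with the next at 4.37 CPM. SCN3B in PVALB-like interneurons was low in library 2 of the 17-month animal, at 37.2 CPM with the next at 47.9 CPM.

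Of 91 differences checked within libraries, 2 ran one way in every library of one animal and the other way in every library of the other, a contrast that was not tested. SCN3B in direct- over indirect-pathway striatal neurons averaged 0.33 log2 at 18 months and -0.41 at 17 months. SCN8A in microglia over the other glia averaged -0.21 log2 at 18 months and 0.083 at 17 months.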

How the results depend on the processing

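Of 1331 recomputed differences of single members, 1264 kept direction and side of the threshold, among them all 252 between the broad neuron classes, and 25 changed sign, all with values that were not called and of at most 0.208 in size. Against 1 member called in the main test, microglia gave 2 with DESeq2 and 2 in nuclei whose own markers were highest for their class. The excitatory animal comparison gave 2 without a filter on low counts, 2 with DESeq2 and 0 with the replicate number as a block, against 1. The inhibitory one gave 2 with that block, against 0, SCN9A and SCN4B (adjusted p = 0.00258 and 0.0479). The oligodendrocyte one gave 2 without a filter, 2 with DESeq2 and 0 with the block (SCN4B 1.81, adjusted p = 0.11), against 1. The numbers only name libraries, and same-numbered libraries correlated at 0 and 0.091 (excitatory), 0.087 and 0.071 (inhibitory) and 0.036 and -0.224 (oligodendrocytes). Leaving out each library gave 0 to 1 members called in SST-like interneurons, 1 to 2 in oligodendrocytes, 2 to 5 in astrocytes, 1 to 2 in microglia, and between animals 0 to 3 (excitatory), 0 to 1 (inhibitory) and 1 to 6 (oligodendrocytes).

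Sign changes in claustrum-like neurons were SCN2A -0.013 in nuclei with their own class highest, and SCN4B 0.020 without a filter, 0.005 with at least 1000 genes, 0.001 with more doublets removed, 0.012 against all other excitatory nuclei and -0.018 to 0.027 without single libraries. SCN3B in LAMP5/SNCG-like interneurons was -0.009 in nuclei with their own class highest. SCN9A in astrocytes was 0.073 with DESeq2 and -0.439 to 0.208 without single libraries. SCN1A between animals in excitatory neurons was 0.009 with the block and -0.1 to 0.068 without single libraries. The same leave-outs gave -0.035 to 0.024 for SCN8A in direct- over indirect-pathway neurons, -0.158 to 0.061 for SCN4B in PVALB-like interneurons, -0.026 to 0.046 and -0.05 to 0.037 for SCN3A and SCN8A between animals in excitatory neurons, -0.048 to 0.026, -0.009 to 0.071 and -0.116 to 0.281 for SCN2A, SCN3A and SCN3B in inhibitory neurons, and -0.136 to 0.022 for SCN3B in oligodendrocytes. Causes were not tested.

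Genes called over the whole table moved by over 1.5 times between direct- and indirect-pathway neurons (52 without the library term, against 103), and between animals in excitatory neurons (289 and 317 without either 17-month library, against 1773), inhibitory neurons (221 with DESeq2, 287 and 396 without single libraries, against 768) and oligodendrocytes (837 with DESeq2, 496 with the block, 745 to 848 without single libraries, against 1372). OPC SCN4B had an adjusted p of 0.0754 without the library term. Counting error is largest where sums hold few UMIs, such as 112 UMIs of SCN9A in striatal projection neurons.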

Other observations

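LAMP5/SNCG-like interneurons were not uniform. One cluster of 240 nuclei had 13.9 ± 5.12 CPM of SCN9A and 490.2 ± 56.9 CPM of SCN1A over 5 libraries, while a second cluster of 170 nuclei had 194 ± 67.2 CPM of SCN9A and 361 ± 45.2 CPM of SCN1A. An inhibitory cluster of 321 nuclei that stayed unnamed, with LAMP5 among its leading genes, had 608 ± 41.9 CPM of SCN1A, above every named inhibitory cluster, and 43.7 ± 14.95 CPM of SCN9A. VIP-like clusters ranged between 74.3 and 206 CPM of SCN9A. The clusters were defined from other genes of the same nuclei, so these are descriptions.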
